A study of Mus musculus with 4 samples.

Results

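The genes described here encode voltage-gated sodium and calcium channels and the potassium channels, with their auxiliary subunits, in embryonic mouse pancreas. They were taken by symbol from a deposited table of gene counts: every row whose name starts with Kcn, with Scn followed by a number and a or b, or with Cacna, Cacnb or Cacng, except *Kcnj11*. The rule used no measured value and gave 137 of the 24391 genes in the table. Of these, 90 had 20 or more counts summed over the 4 libraries, 37 had 1 to 19, and 10 had none. Among the 137 are 93 potassium, 14 sodium and 26 calcium channel genes, and 4 noncoding transcripts that carry a channel symbol (*Kcnq1ot1*, *Kcnd3os*, *Kcnmb4os1* and *Kcnmb4os2*).

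RNA-seq of whole pancreas at E18.5 was used to ask how loss of the repressor REST changes gene expression. The *Rest* pKO libraries are 2 embryos that carry Pdx1Cre and RESTLoxP/LoxP, and the control libraries are 2 embryos given as Pdx1Cre with RESTwt, all on a mixed background with C57BL/6. All 4 embryos therefore carry the Cre transgene by their labels. *Pdx1*-Cre acts in the pancreatic epithelium and spares mesenchyme, vessels, nerves and blood cells, and the floxed allele loses exon 4 only. Libraries held 20738162 and 24134100 counts in *Rest* pKO replicates 1 and 2, against 16936759 and 18644088 in control replicates 1 and 2, so that 3 counts correspond to 0.137 to 0.178 CPM (counts divided by library size, scaled by TMM). *Rest* itself, counted over all exons and cells, was at 12.1 and 9.15 CPM in *Rest* pKO, against 14.2 and 15.7 CPM in controls, and did not pass the test (log2 fold change −0.49, standard error 0.23, edgeR adjusted p = 0.593). *Xist* and Y-linked counts place 1 male and 1 female in each genotype. Markers fixed for islet endocrine cells were present in all libraries, with a sum of 4943 and 6949 CPM in *Rest* pKO, against 3332 and 2240 CPM in controls.

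Ion channels set the electrical behaviour of a cell. Potassium channels pull the membrane toward rest, sodium channels drive fast depolarization, and voltage-gated calcium channels turn depolarization into calcium entry; in pancreatic beta cells that entry triggers insulin release after closure of the ATP-sensitive potassium channel. REST binds a DNA element called RE1 and represses neuronal genes, sodium channel genes among them, in many non-neuronal cells.

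In *Rest* pKO pancreas, potassium channel genes lay on both sides of the controls. Calcium channel genes either overlapped the controls (10 of 16 tested) or lay below them (6 of 16, 37.5%, against 21.2% of all genes). Most of the 16 (12) have more than 5 kb of exon. Of these 12, 5 lay below the controls, against 34.9% of all genes that long. No channel gene passed edgeR's quasi-likelihood test (adjusted p under 0.05 over the 14550 genes tested; 0.0275% of all genes passed, all of them lower). The lowest adjusted p among the 74 channel genes tested was 0.349, reached by *Kcnk16* above and *Cacna1g* below the controls. The other 63 had too few counts for the filter. Before adjustment, p was under 0.05 for 6 of the 74 above the controls (8.11%, against 3.26% of all genes) and for 9 below them (12.2%, against 5.61%). DESeq2 called *Kcnk16* higher and *Cacna1g* lower out of the 71 channel genes to which it gave an adjusted p, where it called 0.182% of all genes higher and 0.533% lower.

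In 18 of the 74 tested genes both values in *Rest* pKO exceeded both control values (24.3%, against 21.5% of all genes tested), in 21 both were under them (28.4%, against 21.2%), and in 35 the genotypes overlapped. The log2 fold change was above 0 in 35 and below 0 in 39, where it was above 0 in 49.5% of all genes; its median was −0.04, where that of all genes was −0.00. Summed over all 137 genes, the level was 567 and 501 CPM in *Rest* pKO, against 581 and 558 CPM in controls. With 1 library left out, the log2 fold change ran from 1.14 to 1.45 for *Kcnk16* and from −1.36 to −1.01 for *Cacna1g*. It ran from −1.13 to −0.36 for *Cacna2d1* and from −2.02 to −0.64 for *Kcnq1ot1*. A fit with the embryo's sex as a term was added once *Xist* and Y-linked counts had been seen. The added term leaves fewer residual degrees of freedom than the main fit has to measure the spread between embryos. In that fit edgeR called *Kcnk16* and *Kcna2* higher (0.412% of all genes were) and *Cacna1g* and *Kcnq1ot1* lower (1.29% of all genes were).

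**Figure D1:**
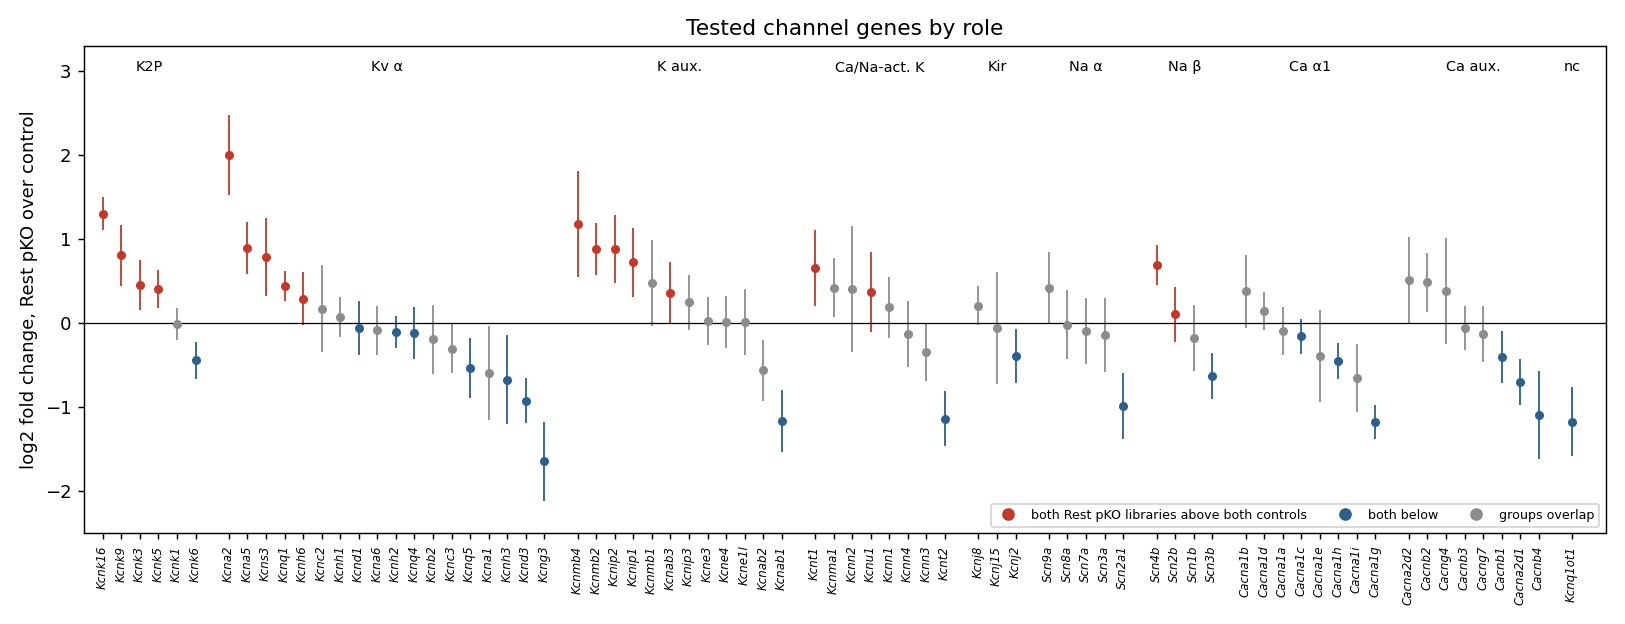
Log2 fold change of *Rest* pKO over control for 73 of the 74 tested channel genes, grouped by role (bars, standard error from edgeR; nc, noncoding). Red marks genes with both *Rest* pKO values above both control values, blue those with both below and grey those that overlap. No calcium channel gene is red (against 21.5% of all genes tested) and 6 of 16 are blue (37.5%, against 21.2%). Of the 12 with more than 5 kb of exon, 5 are blue, against 34.9% of all genes that long.

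Potassium channels of the K2P family (*Kcnk* genes), which carry the leak current that sets the resting potential, had a summed level of 134 and 118 CPM in *Rest* pKO, against 109 and 101 CPM in controls. The genotypes did not overlap in this sum, but they did once *Kcnk16*, an islet gene, was left out (102 and 91.6 CPM in *Rest* pKO, against 96.9 and 89.8 CPM in controls). Of the 14 genes, 8 had 20 or more counts and 6 were tested. Of these 6, *Rest* pKO exceeded the controls without overlap in 4 and was under them in 1, where all genes gave 21.5% and 21.2%, and the median log2 fold change was 0.43.

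*Kcnk16*, which encodes the islet K2P channel TALK-1, was at 32.0 and 25.9 CPM in *Rest* pKO, against 12.1 and 11.4 CPM in controls. Every *Rest* pKO value was more than that of either control by a margin wider than the distance between replicates. Its log2 fold change was 1.30 (standard error 0.20, 2.46-fold), with an adjusted p of 0.349 from edgeR and 0.00209 from DESeq2. The log2 fold change was 1.14 without *Rest* pKO replicate 1 and 1.45 without *Rest* pKO replicate 2. It was 1.34 without control replicate 1 and 1.26 without control replicate 2. With sex as a term it was 1.29 (edgeR adjusted p = 0.000834). *Kcnk16* lies at chr14:21081978-21088384 on the minus strand (mm9). The 14 islet endocrine markers were all above 0 in log2 fold change (median 0.83), and their sum, given above, was higher in both *Rest* pKO libraries. Their part in the *Kcnk16* result was not tested, and in whole organ more cells of a type and more RNA per cell cannot be told apart.

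The other K2P genes differed less. *Kcnk1*, which encodes TWIK-1 and had the highest level per exon length of all channel genes over the 4 libraries, was at 66.2 and 56.7 CPM in *Rest* pKO, against 68.6 and 55.3 CPM in controls, and the genotypes overlapped (log2 fold change −0.01, standard error 0.19). *Kcnk5*, the alkaline-activated TASK-2 of epithelia, was at 18.4 and 17.1 CPM in *Rest* pKO, against 11.3 and 15.4 CPM in controls (log2 fold change 0.41, standard error 0.22). *Kcnk9*, the acid-sensitive TASK-3, was at 2.78 and 3.10 CPM in *Rest* pKO, against 1.90 and 1.46 CPM in controls (log2 fold change 0.81, standard error 0.36). All *Rest* pKO libraries were thus above the controls for *Kcnk5* and *Kcnk9*, but neither gene passed (edgeR adjusted p = 0.637 and 0.574). *Kcnk3*, the acid-sensitive TASK-1, had a log2 fold change of 0.45 and *Kcnk6*, which encodes TWIK-2, one of −0.44, both with separated genotypes. *Kcnk10*, a mechanically and lipid-gated channel, was not tested, with 11 and 8 counts in *Rest* pKO, against 3 and 4 counts in controls.

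Per kilobase of exon, the order of the leading K2P genes differed between the genotypes. *Kcnk16*, with short exons, stood at 36.4 and 29.4 CPM per kb in *Rest* pKO, against 13.7 and 12.96 CPM per kb in controls. *Kcnk1* stood at 28.8 and 24.7 CPM per kb in *Rest* pKO, against 29.8 and 24.1 CPM per kb in controls. Within each library *Kcnk16* was therefore above *Kcnk1* in *Rest* pKO and below it in controls; the replicate ranges of the 2 genes did not overlap in controls, and in *Rest* pKO they differed by less than 1 CPM per kb at their nearest. On this scale the next genes over the 4 libraries were *Kcnj8* (9.95 in *Rest* pKO and 8.63 in controls) and *Kcnq1* (10.04 in *Rest* pKO and 7.39 in controls), and *Cacna1g* ranked 10 (1.90 in *Rest* pKO and 4.29 in controls).

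**Figure D2:**
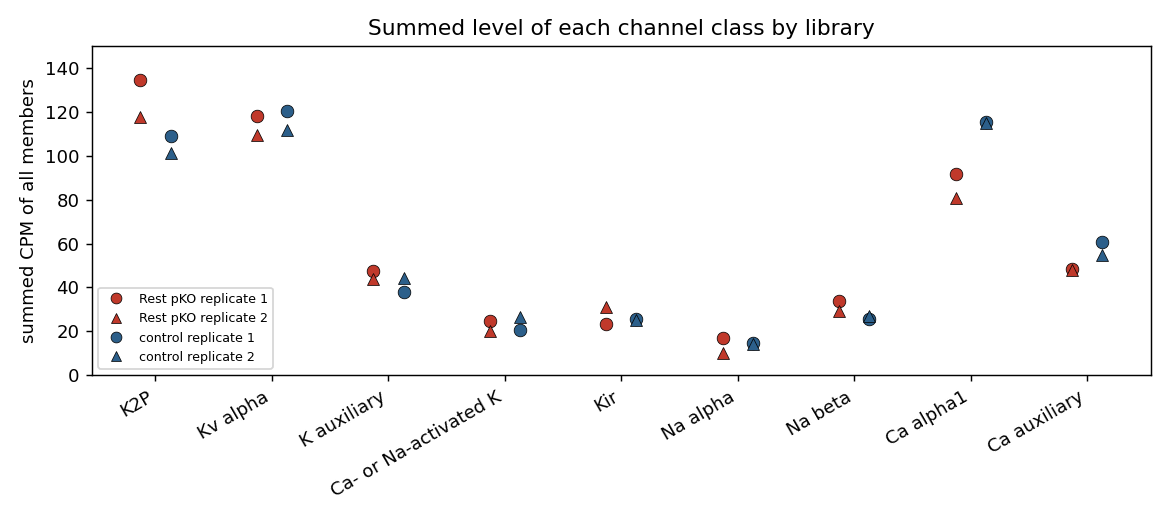
Summed CPM of all members of each channel class in each library (red, *Rest* pKO; blue, control; circles replicate 1, triangles replicate 2; the axis starts at 0). The K2P and sodium channel beta classes lie above the controls in both *Rest* pKO libraries, both calcium classes lie below, and the others overlap. Single genes weigh heavily in these sums, and the K2P sums overlap without *Kcnk16*. In the beta class *Scn4b* was at 25.2 and 18.1 CPM in *Rest* pKO, against 11.9 and 14.9 CPM in controls, while *Scn3b* lay below the controls. In the calcium alpha1 class *Cacna1g* was at 16.7 and 21.4 CPM in *Rest* pKO, against 41.6 and 44.5 CPM in controls.

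Voltage-gated potassium channel genes (Kv alpha subunits), which repolarize the membrane after depolarization, lay on both sides of the controls. Of 40 genes, 26 had 20 or more counts and 19 were tested. In *Rest* pKO 5 were above (26.3%, against 21.5% of all genes) and 8 below the controls without overlap (42.1%, against 21.2%). An unadjusted p under 0.05 was found for 3 on each side, where all genes gave 3.26% above and 5.61% below, and the group had a median log2 fold change of −0.11. Their summed level was 118 and 109 CPM in *Rest* pKO, against 120 and 111 CPM in controls.

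*Kcna2*, a Shaker-type channel best known from axons, was at 5.38 and 2.50 CPM in *Rest* pKO, against 0.893 and 1.06 CPM in controls. These rest on 116 and 55 counts in *Rest* pKO, against 15 and 21 counts in controls, and both *Rest* pKO libraries exceeded the controls, replicate 1 by most. Its log2 fold change was 2.00 (standard error 0.47, 4.01-fold), the largest above 0 among the channel genes tested, with an adjusted p of 0.396 from edgeR and 0.0984 from DESeq2. Without *Rest* pKO replicate 1 it was 1.35 and did not pass, and with sex as a term it was 1.94 with an edgeR adjusted p of 0.00902. Of the 12 markers of neurons and Schwann cells, the 9 tested were all above 0 (median log2 fold change 0.85) and the list summed to 34.2 and 37.3 CPM in *Rest* pKO, against 20.6 and 18.4 CPM in controls, with *Chat*, the marker of cholinergic neurons, at 0 counts. Their part in the *Kcna2* result was not tested.

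*Kcna5*, a Shaker-type channel of vascular and heart muscle, was at 5.10 and 6.37 CPM in *Rest* pKO, against 2.62 and 3.53 CPM in controls (log2 fold change 0.90, standard error 0.31). *Kcnq1*, which works with *Kcne* subunits in epithelia and is imprinted, was at 31.7 and 30.2 CPM in *Rest* pKO, against 23.7 and 22.0 CPM in controls (log2 fold change 0.44, standard error 0.18). The genotypes were apart for both genes, and both were past an unadjusted p of 0.05 but not the adjusted one (edgeR adjusted p = 0.495 and 0.540). *Kcnh6*, an ether-a-go-go-related channel, had a log2 fold change of 0.29 and *Kcnh2*, its close relative and the channel of cardiac repolarization, one of −0.11 (edgeR adjusted p = 0.768 and 0.859). *Kcnc1*, a fast delayed rectifier of neurons, was not tested, with 10 and 11 counts in *Rest* pKO, against 2 and 3 counts in controls; with no filter on low counts its edgeR adjusted p was 0.643.

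On the other side, *Kcnd3*, which carries the transient A-type current, was at 9.96 and 7.51 CPM in *Rest* pKO, against 19.6 and 13.6 CPM in controls (log2 fold change −0.92, standard error 0.27, edgeR adjusted p = 0.433). *Kcng3*, an electrically silent subunit that acts only in mixed channels, was at 0.927 and 0.592 CPM in *Rest* pKO, against 2.98 and 1.81 CPM in controls (log2 fold change −1.64, standard error 0.47, edgeR adjusted p = 0.433). In both genes the *Rest* pKO libraries were below both controls, and *Kcng3* had the lowest log2 fold change of all channel genes tested. Exons of *Kcnd3* overlap an opposite-strand transcript over 165 bases, and the strand setting of the counting is not stated, so reads of that transcript may be included.

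**Figure D3:**
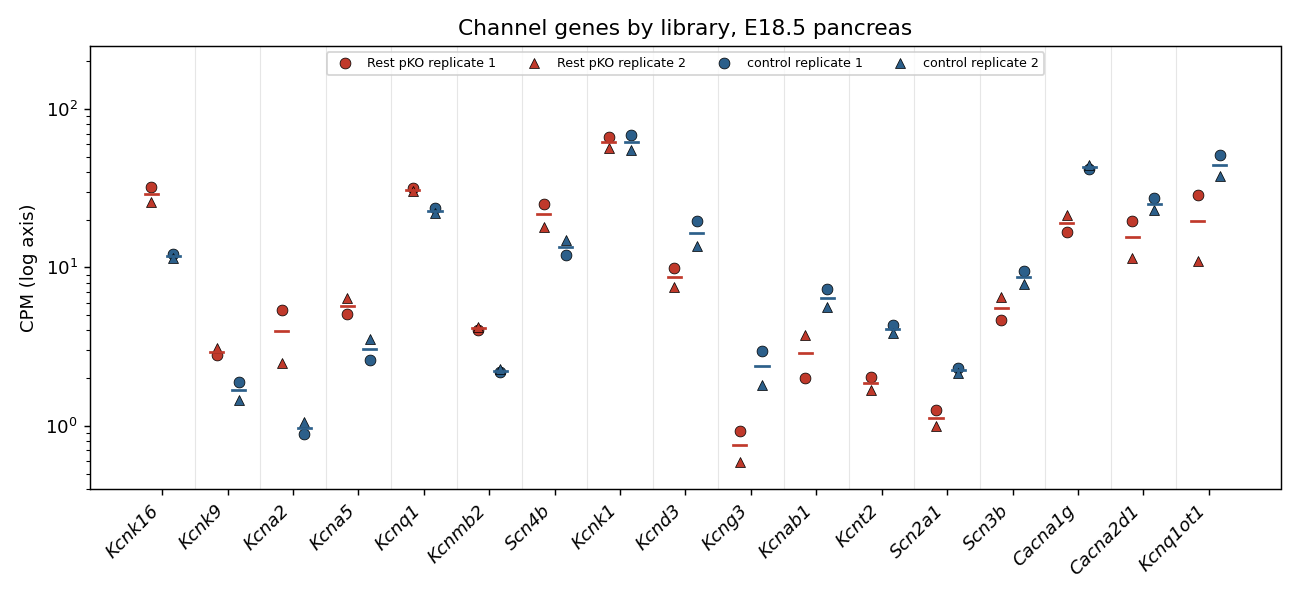
CPM of 17 channel genes in each library on a log axis (red, *Rest* pKO; blue, control; circles replicate 1, triangles replicate 2; short lines, means). *Kcnk16* and *Kcna2* lie above the controls in both *Rest* pKO libraries, *Cacna1g* and *Kcng3* lie below, and *Kcnk1* overlaps.

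The RE1 element joins a left arm, CAGCACC, and a right arm, GGACAGC, and these letters were searched on both strands of RefSeq promoter windows (GRCm38.p6, 250 bases before to 50 after each transcript start). Windows were matched for 102 of the 137 genes, 138 windows in all. Either arm, exact, was in 24 of these (17.4%), against 13.1% of all 32851 windows. The pair with 2 bases between the arms and up to 2 of its 14 letters changed was in 1 (0.725%), against 0.773% of all windows, and the exact pair was in none, against 0.0213%. Among tested genes with an exact arm but no pair, 6 were above and 7 below 0 in log2 fold change. Shown first is the window with the pair (*Kcna5*, gene on the minus strand, chr6:126535506-126535805, the pair in capitals). The pair reads on the strand opposite to the letters shown, with 2 letters changed. It begins 14 bases before the start and runs across it. Next is the window with both arms on the same strand (*Kcnh6*, plus strand, chr11:106007898-106008197, the arms in capitals, 7 bases apart). Last, for comparison, is that of the gene with the lowest p, which holds neither arm (*Kcnk16*, minus strand, chr14:20269220-20269519). A match describes the letters of the window and was not tested as a binding site.
Kcna5: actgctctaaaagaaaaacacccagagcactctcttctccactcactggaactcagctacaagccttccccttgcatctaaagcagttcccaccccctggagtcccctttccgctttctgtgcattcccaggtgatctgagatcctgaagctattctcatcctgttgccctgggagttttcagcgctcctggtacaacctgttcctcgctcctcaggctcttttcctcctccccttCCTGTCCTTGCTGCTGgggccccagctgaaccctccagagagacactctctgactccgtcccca
Kcnh6: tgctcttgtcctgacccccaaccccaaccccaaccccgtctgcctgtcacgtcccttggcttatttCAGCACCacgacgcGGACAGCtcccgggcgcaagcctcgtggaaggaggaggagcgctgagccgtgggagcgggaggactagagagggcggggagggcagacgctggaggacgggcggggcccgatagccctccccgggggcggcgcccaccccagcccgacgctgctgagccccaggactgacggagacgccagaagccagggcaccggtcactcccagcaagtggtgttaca
Kcnk16: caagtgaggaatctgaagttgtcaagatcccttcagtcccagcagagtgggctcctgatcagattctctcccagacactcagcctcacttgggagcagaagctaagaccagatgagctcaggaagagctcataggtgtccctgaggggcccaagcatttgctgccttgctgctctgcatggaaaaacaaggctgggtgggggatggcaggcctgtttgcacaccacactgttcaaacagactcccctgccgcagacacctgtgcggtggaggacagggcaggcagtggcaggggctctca

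Auxiliary and other potassium channel genes, which bind pore subunits and change their gating or trafficking, lay mostly above 0. Of 17 genes 12 were tested, 10 above and 2 below 0 in log2 fold change (median 0.30), with *Rest* pKO above the controls without overlap in 5 (41.7%, against 21.5% of all genes) and below in 1 (8.33%, against 21.2%). *Kcnmb2*, a beta subunit that inactivates the large-conductance calcium-activated channel, was at 4.03 and 4.23 CPM in *Rest* pKO, against 2.20 and 2.27 CPM in controls (log2 fold change 0.88, standard error 0.31, edgeR adjusted p = 0.495). The replicates of this gene lay close together and the genotypes far apart.

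*Kcnip2* and *Kcnip1* encode calcium-binding proteins that join A-type channels of the *Kcnd* family. *Kcnip2* was at 16.0 and 6.56 CPM in *Rest* pKO, against 5.83 and 6.40 CPM in controls, so that *Rest* pKO replicate 1 alone stood clear of the rest (log2 fold change 0.88, standard error 0.41; 0.10 without that replicate). *Kcnip1* was at 1.62 and 2.00 CPM in *Rest* pKO, against 1.19 and 1.01 CPM in controls, without overlap (log2 fold change 0.72, standard error 0.41). *Kcnab1*, the beta subunit of Shaker-type channels, went the other way and was at 1.99 and 3.73 CPM in *Rest* pKO, against 7.26 and 5.64 CPM in controls (log2 fold change −1.17, standard error 0.37, edgeR adjusted p = 0.463). *Kcne3*, the partner of *Kcnq1* in epithelia, overlapped at 6.72 and 6.87 CPM in *Rest* pKO, against 5.35 and 8.01 CPM in controls.

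All 8 genes of calcium- and sodium-activated potassium channels were tested, and 5 lay above and 3 below 0 (median log2 fold change 0.28). *Kcnt2*, a sodium-activated channel, was at 2.04 and 1.69 CPM in *Rest* pKO, against 4.34 and 3.88 CPM in controls (log2 fold change −1.14, standard error 0.33, edgeR adjusted p = 0.433). Its relative *Kcnt1* lay on the other side, at 1.71 and 1.27 CPM in *Rest* pKO, against 0.773 and 1.11 CPM in controls (log2 fold change 0.66, standard error 0.45). *Kcnma1*, the pore of the large-conductance channel, and *Kcnn4*, the intermediate-conductance channel of exocrine glands and blood cells, overlapped between the genotypes (log2 fold change 0.42 and −0.13). *Kcnma1* was high only in *Rest* pKO replicate 1, at 7.46 CPM, where the second replicate had 4.10 CPM and the controls had 4.05 and 4.59 CPM.

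Among the 14 inward rectifiers (*Kcnj* genes without *Kcnj11*) only 3 were tested. *Kcnj8*, the pore of the vascular ATP-sensitive channel, was at 17.5 and 26.04 CPM in *Rest* pKO, against 19.8 and 17.99 CPM in controls, and the genotypes overlapped (log2 fold change 0.21). *Kcnj2*, the classical strong inward rectifier, was below in both *Rest* pKO libraries (log2 fold change −0.39, standard error 0.32). The beta-cell ATP-sensitive channel, which the symbol rule leaves out, was above in both of its subunits. *Kcnj11*, its pore, was at 12.98 and 12.9 CPM in *Rest* pKO, against 7.97 and 7.01 CPM in controls (log2 fold change 0.79, edgeR adjusted p = 0.424), and *Abcc8*, its sulfonylurea receptor, at 65.0 and 80.4 CPM in *Rest* pKO, against 48.7 and 40.9 CPM in controls (log2 fold change 0.70, edgeR adjusted p = 0.428).

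Sodium channel pores (Na alpha) were low throughout. Of 10 genes 5 were tested, and 4 of these lay below 0, with a median log2 fold change of −0.10. *Scn2a1*, a channel of central neurons, was the only one with separated genotypes, at 1.25 and 1.00 CPM in *Rest* pKO, against 2.32 and 2.17 CPM in controls (log2 fold change −0.99, standard error 0.39, edgeR adjusted p = 0.536). *Scn9a* and *Scn3a*, the main sodium channels of mouse islets, overlapped, at 4.08 and 2.05 CPM in *Rest* pKO, against 2.62 and 1.97 CPM in controls for *Scn9a*, and at 3.85 and 1.69 CPM in *Rest* pKO, against 3.27 and 2.82 CPM in controls for *Scn3a*. In both genes *Rest* pKO replicate 1 held the highest value.

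The 4 beta subunits, single-span proteins that tune sodium channel gating and adhesion, were all tested. *Scn4b* was at 25.2 and 18.1 CPM in *Rest* pKO, against 11.9 and 14.9 CPM in controls (log2 fold change 0.69, standard error 0.24, edgeR adjusted p = 0.495, DESeq2 adjusted p = 0.514). *Scn3b* was at 4.63 and 6.51 CPM in *Rest* pKO, against 9.46 and 7.81 CPM in controls (log2 fold change −0.63, standard error 0.28, edgeR adjusted p = 0.572). *Scn2b* was also above without overlap, by a narrow margin, at 2.55 and 2.78 CPM in *Rest* pKO, against 2.44 and 2.52 CPM in controls (log2 fold change 0.10, standard error 0.33). The class thus held 2 of 4 genes above and 1 below the controls, where 21.5% of all genes lay above and 21.2% below. The class summed to 33.7 and 29.1 CPM in *Rest* pKO, against 25.5 and 27.02 CPM in controls. Most of the *Rest* pKO sum was *Scn4b*, so the higher sum is not a trait shared by the class.

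The 26 calcium channel genes summed to 140.0 and 129 CPM in *Rest* pKO, against 176 and 170.0 CPM in controls, so that both *Rest* pKO sums were lower. Of 16 tested, 5 lay above and 11 below 0 in log2 fold change (median −0.15), and *Rest* pKO was below the controls without overlap in 6 (37.5%, against 21.2% of all genes) and above in none (against 21.5%). More than 5 kb of exon was found in 12 of the 16, and 5 of these 12 lay below the controls. Of all genes that long 34.9% lay below and 12.9% above the controls.

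*Cacna1g*, the pore of a low-voltage-activated T-type channel, was at 16.7 and 21.4 CPM in *Rest* pKO, against 41.6 and 44.5 CPM in controls. The replicates of each genotype differed by far less than the genotypes. Its log2 fold change was −1.18 (standard error 0.20, 2.26-fold lower), with an adjusted p of 0.349 from edgeR and 0.00319 from DESeq2. The log2 fold change was −1.01 without *Rest* pKO replicate 1 and −1.36 without *Rest* pKO replicate 2. It was −1.23 without control replicate 1 and −1.13 without control replicate 2. With sex as a term it was −1.19 (edgeR adjusted p = 0.00359). *Cacna1g* lies at chr11:94269705-94335414 on the minus strand (mm9). Without it the other calcium channel genes summed to 123 and 107 CPM in *Rest* pKO, against 134 and 126 CPM in controls, so that both sums stayed below. Of the 15 tested genes left, 5 lay below the controls without overlap and 10 overlapped. Much of the remaining gap was *Cacna2d1*, at 19.5 and 11.4 CPM in *Rest* pKO, against 27.3 and 23.0 CPM in controls. The 10 smooth muscle and mesenchyme markers summed to 3367 and 5383 CPM in *Rest* pKO, against 6153 and 5726 CPM in controls. Most of this sum was collagen. *Col3a1* was at 2135 and 3444 CPM in *Rest* pKO, against 3789 and 3442 CPM in controls. *Col1a1* was at 518 and 976 CPM in *Rest* pKO, against 1513 and 1398 CPM in controls. In log2 fold change 4 markers (*Acta2*, *Myh11*, *Tagln* and *Pdgfrb*) lay above 0 and 6, both collagen genes among them, below. The part of these markers in the calcium channel values was not tested.

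*Cacna1h*, a second T-type pore, was at 8.99 and 10.6 CPM in *Rest* pKO, against 13.7 and 12.95 CPM in controls (log2 fold change −0.45, standard error 0.21, edgeR adjusted p = 0.606), and its exons overlap 158 bases of the opposite-strand gene *Tpsg1*. *Cacna1d*, an L-type pore of beta cells, overlapped, at 33.3 and 22.9 CPM in *Rest* pKO, against 24.5 and 26.3 CPM in controls (log2 fold change 0.14), with 518 bases of exon overlap with *Chdh* on the opposite strand. *Cacna1c*, the other L-type pore of beta cells and of muscle, differed little (log2 fold change −0.16, standard error 0.21), and *Cacna1a*, a P/Q-type pore of nerve terminals, overlapped (−0.10). *Cacna1s*, the L-type pore of skeletal muscle, was counted 21 times in *Rest* pKO replicate 2 and never in the other libraries, which allows up to 3 counts in each of them. In that library the 8 striated muscle markers summed to 144 CPM, where they summed to 19.1 CPM in the other *Rest* pKO library and to 19.2 and 22.4 CPM in controls. Their part in the *Cacna1s* counts was not tested.

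Of the auxiliary calcium channel genes, *Cacna2d1*, an extracellular subunit that brings the pore to the surface, was at 19.5 and 11.4 CPM in *Rest* pKO, against 27.3 and 23.0 CPM in controls (log2 fold change −0.70, standard error 0.27, edgeR adjusted p = 0.528). The log2 fold change was −1.13 without *Rest* pKO replicate 1 and −0.36 without *Rest* pKO replicate 2. *Cacnb3*, a cytosolic beta subunit found in beta cells, overlapped, at 13.3 and 21.9 CPM in *Rest* pKO, against 18.3 and 18.4 CPM in controls.

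*Kcnq1ot1*, the long noncoding RNA read antisense to *Kcnq1* from the paternal allele of an imprinted region, was the only noncoding member tested. It was at 28.5 and 10.9 CPM in *Rest* pKO, against 51.1 and 37.8 CPM in controls (log2 fold change −1.17, standard error 0.41, edgeR adjusted p = 0.495, DESeq2 adjusted p = 0.127). Both *Rest* pKO libraries were below both controls, replicate 2 most of all. The log2 fold change was −2.02 without *Rest* pKO replicate 1 and −0.64 without *Rest* pKO replicate 2. It was −0.94 without control replicate 1 and −1.38 without control replicate 2. With sex as a term it was −1.30 (edgeR adjusted p = 0.00149). Without strand in the counting, its reads and those of *Kcnq1* cannot be told apart where they overlap.

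Lists of channel genes known from particular cells were described in the same way, with no test of a list. The 24 tested genes of islet cells were 12 above and 12 below 0 in log2 fold change, with a median of 0.04, and without overlap 6 were above and 6 below the controls (25.0% each way, near the 21.5% and 21.2% of all genes). Tested genes of duct and acinar cells were 4 above and 2 below 0 (median 0.21), of smooth muscle and endothelium 5 and 4 (0.21), of neurons and glia 2 and 5 (−0.10), of leukocytes and erythroid cells 1 and 3 (−0.29), and both of striated muscle were below 0. In the same libraries the 14 islet endocrine markers and the 6 endothelial markers were all above 0. So were the 7 tested striated muscle markers, whose sum was high only in *Rest* pKO replicate 2. The endothelial markers summed to 477 and 474 CPM in *Rest* pKO, against 327 and 411 CPM in controls, the macrophage markers to 75.9 and 127 CPM in *Rest* pKO, against 138 and 135 CPM in controls, and the erythroid markers to 22.1 and 21.9 CPM in *Rest* pKO, against 32.3 and 133 CPM in controls. Duct markers, 4 above and 4 below 0, summed to 1379 and 1180 CPM in *Rest* pKO, against 1246 and 1044 CPM in controls. Acinar markers, 17 above and 3 below 0, summed to 386061 and 510826 CPM in *Rest* pKO, against 401005 and 363945 CPM in controls.

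Channel genes that the study's list of REST-bound regions in E13.5 pancreas places near a bound region were read against the same background. Of those with a bound region near the start, 10 were tested, 4 above and 6 below 0 (median log2 fold change −0.22), and without overlap above the controls in 3 (*Kcnip2*, *Kcnk3* and *Kcnh6*) and below in 3 (*Scn2a1* and *Scn3b* among them), where all genes gave 21.5% and 21.2%. Of those with a more distant bound region only, *Kcna2* and *Scn4b* among them, 23 were tested, 13 above and 10 below 0 (median 0.17). Of those in neither list, 40 were tested, 18 above and 22 below 0 (median −0.07). *Kcnk16* and *Cacna1g*, the 2 channel genes called by DESeq2, are both in neither list. A further list of 28 tested genes that act with these channels but are not members, *Kcnj11* and *Abcc8* among them, had 19 above and 9 below 0 (median 0.17), and none passed edgeR's test.

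The log2 fold change varied with exon length in channel genes and in all genes. Over the 71 tested channel genes placed on the mm9 annotation, Spearman's rho between log2 fold change and exon length was −0.40, and over 13312 genes it was −0.30; these are descriptions across genes of the same 4 libraries. Of the 40 channel genes with up to 5 kb of exon, 16 (40.0%) were above the controls without overlap and 8 were below, against 25.8% and 14.8% of all genes of that length. Of the 31 with more than 5 kb, 2 (6.45%) were above and 12 (38.7%) below, against 12.9% and 34.9% of all genes of that length. *Kcnk16* has 0.879 kb of exon and *Cacna1g* 10.04 kb, and the part of exon length in their values and in those of the classes was not tested.

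**Figure D4:**
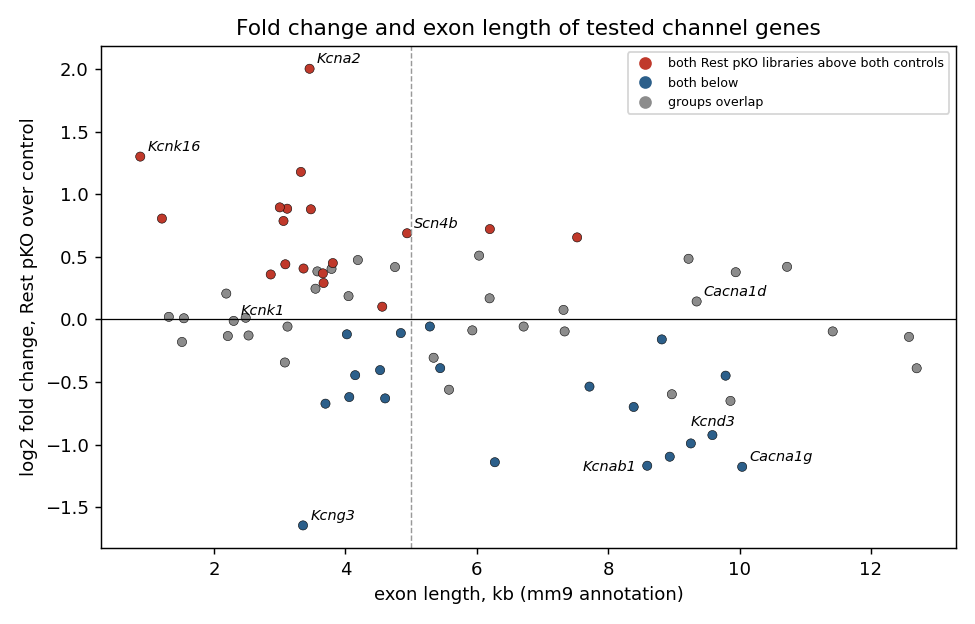
Log2 fold change of *Rest* pKO over control against exon length in kb for the 71 tested channel genes placed on mm9 (red, both *Rest* pKO values above both control values; blue, both below; grey, overlap; dashed line, 5 kb). Most red points lie left of the line, and 12 of the 20 blue points lie right of it.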

How the data were processed

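The authors deposited whole-number counts per gene, made from paired-end RNA-seq of whole E18.5 pancreas aligned to mm9 with STAR, with uniquely mapped reads assigned to UCSC genes by featureCounts, given as version 1.5 in the submitters' processing notes; the strand setting and whether pairs or reads were counted are not given in the sources used here. Which of the study's 3 pancreas per genotype these 4 libraries are is not given. The labels give the controls as wild type for *Rest*, while a heading of the study names them after the floxed allele.

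All 24391 genes entered one fit. Genes passing filterByExpr (14550) were scaled by TMM and tested for genotype with edgeR 4.0.16 (glmQLFit, glmQLFTest) in R 4.3.3, with Benjamini-Hochberg adjustment over all genes tested and a threshold of 0.05; DESeq2 1.42.0 was the alternative, and its empty adjusted p-values stayed empty. Log2 fold changes are given as *Rest* pKO over control. The replicates differed by more than sampling noise (chi-square per degree of freedom 64.9 for *Rest* pKO and 23.2 for controls), and p-values measure only the spread between these embryos, with 2 residual degrees of freedom and 5.48 borrowed from other genes. Positions and exon lengths came from an mm9 annotation, in which 130 of the 137 symbols were found; promoter windows are from RefSeq on GRCm38.p6, matched by symbol. Where groups do not overlap, both values of one genotype lie beyond both of the other.

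The channel genes and all lists (islet, duct and acinar, smooth muscle and endothelial, striated muscle, neuron and glia, leukocyte and erythroid channels; REST-bound regions near and distant; partner genes; cell type markers) were chosen with earlier results of these data known. Named genes are, in each role, the 3 tested genes with the highest mean CPM and up to 3 in each direction with the smallest p, every gene called by edgeR or DESeq2, the islet and near-start REST-bound lists, all *Kcnk* genes, and genes at 0 in one genotype with 20 or more counts in the other; *Rest*, *Kcnj11*, *Abcc8*, *Kcnd3os*, *Kcnmb4os1* and *Kcnmb4os2* are named outside it. A total of 1 gene within the naming rule enters the counts but is not reported here by name or value. The procedure was tested on simulated data.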

Additional observations from a re-analysis of the deposited data

How the results depend on the processing

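Without a filter, with a filter of at least 1 CPM, with DESeq2's size factors or with TMM without acinar genes, no channel gene was called and the number of all genes called was 3 or 4. The replicate block changed neither count (0 channel genes and 4 genes in all). Deviations of same-numbered libraries correlated at 0.0652. With 2 libraries per genotype, and same-numbered libraries of opposite sex, this single value cannot tell whether they share a litter or batch. DESeq2 called 102 genes (26 higher, 76 lower), 2 of them channel genes. Sex as a term was chosen after seeing the data and leaves fewer residual degrees of freedom than the main fit. With it edgeR called 247 genes (60 higher, 187 lower), 4 of them channel genes. Leaving out 1 library gave 1 to 514 genes and 0 to 4 channel genes, the lowest in both without *Rest* pKO replicate 2 and the highest in both without *Rest* pKO replicate 1; a lone library is then assumed to vary like the others, and the cause was not tested.

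Most of the 418 values of 38 named channel genes under alternatives kept their direction and side of the threshold; 13 passed it in the same direction and 13 turned sign, all of the last when 1 library was left out. The lowest and highest log2 fold changes with 1 library left out were, for the genes that turned sign, −0.16 and 0.15 for *Kcnk1* (without control replicate 2 and without control replicate 1), −0.24 and 0.34 for *Kcne3* (without control replicate 1 and without control replicate 2), −0.073 and 0.79 for *Kcnma1* (without *Rest* pKO replicate 1 and without *Rest* pKO replicate 2), −0.57 and 0.51 for *Kcnn4* (without control replicate 1 and without control replicate 2), −0.10 and 0.47 for *Kcnj8* (without *Rest* pKO replicate 2 and without *Rest* pKO replicate 1), −0.15 and 0.84 for *Scn9a* (without *Rest* pKO replicate 1 and without *Rest* pKO replicate 2), −0.85 and 0.34 for *Scn3a* (without *Rest* pKO replicate 1 and without *Rest* pKO replicate 2), −0.15 and 0.39 for *Cacna1d* (without *Rest* pKO replicate 1 and without *Rest* pKO replicate 2), −0.46 and 0.26 for *Cacnb3* (without *Rest* pKO replicate 2 and without *Rest* pKO replicate 1) and −0.47 and 0.21 for *Cacna1a* (without *Rest* pKO replicate 1 and without *Rest* pKO replicate 2). Genes under about 40 summed counts were too low to test.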
